A study of Rattus norvegicus with 24 samples.

Results

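Ptgs2 (ENSRNOG00000002525) encodes cyclooxygenase-2, the inducible enzyme that turns arachidonic acid into prostaglandin H2. Its counts were followed in microglia isolated from neonatal rats after normoxia (Nx) or intermittent hypoxia (IH) and after an injection of vehicle or lipopolysaccharide (LPS). Ptgs2 was to be described together with Nos2, the gene of inducible nitric oxide synthase, and both were chosen by name as the inducible enzymes of inflammation. Of these 2 genes 1, Ptgs2, is described, and Nos2 was not analysed here. The count files hold 32754 genes, of which 12860, Ptgs2 among them, were tested.

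The series holds 24 samples in 8 groups of 3, which are formed by sex (male, female), oxygen (Nx, IH) and injection (vehicle, LPS). Sprague-Dawley pups were kept with their dams from postnatal day 1 for 8 days, 8 hours a day, in room air (Nx, 21% O2) or in IH with 2 min episodes that alternated between 10.5% and 21% O2. At postnatal day 9, 16 hours after the last exposure, they were injected intraperitoneally, and brains were taken 3 hours later. The LPS dose is 0.1 mg/kg in the design of the series, whereas the labels of the samples give 0.1 mg/mL, and the vehicle is saline in the labels and HBSS in the methods of the study. Cells were taken from the brain without cerebellum and olfactory bulbs by a magnetic antibody to CD11b/c, which binds microglia and also other myeloid cells, and whether a sample is 1 pup or a pool is not stated in the sources used here.

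Cyclooxygenase-2 is normally low in resting macrophages and is transcribed within hours of a signal through Toll-like receptor 4, the receptor of LPS, largely through the transcription factors NF-κB and C/EBPβ. Prostaglandin H2 is converted further by separate synthases, and prostaglandin E2 made in this way mediates fever and pain. In the brain, neurons express Ptgs2 as an activity-dependent gene, and the cells of blood vessels and perivascular macrophages express it after systemic LPS. Ptgs1, its constitutive relative, and the prostaglandin synthases were among 67 pathway and regulator genes listed for comparison, but only 1 of them, Irf1, has an identifier paired with its name in the sources used here. For the same reason none of 54 marker genes of microglia and other cell types could be matched, and the makeup of the isolates was not checked against markers. Ptgs2 was therefore set beside 11 other NF-κB targets whose names and identifiers are paired in those sources.

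In the GRCr8 rat assembly Ptgs2 lies on the plus strand of chromosome 13, from 64714063 to 64722320. The 250 bases before its start (RefSeq, GRCr8, chr13:64713813-64714062, plus strand) are shown because the gene responded to LPS, and those of Cxcl1 (chr14:17479322-17479571, minus strand) and Cxcl10 (chr14:15988816-15989065, plus strand) because these LPS-induced genes were the NF-κB targets whose log2 ratio to Ptgs2 varied least and most over the 12 LPS samples. Without the 2 LPS libraries of weakest response, described further on, that ratio varied more for Cd83, Icam1 and Birc3 than for Cxcl10. Each is written 5′ to 3′ along its gene, with capitals for matches on either strand to 6 motifs, namely the κB consensus, C/EBP (TTNCNNAA), a CRE-type site (CGTCA), an E-box (CACGTG), AP-1 (TGANTCA) and a TATA box (TATAAA).
Ptgs2: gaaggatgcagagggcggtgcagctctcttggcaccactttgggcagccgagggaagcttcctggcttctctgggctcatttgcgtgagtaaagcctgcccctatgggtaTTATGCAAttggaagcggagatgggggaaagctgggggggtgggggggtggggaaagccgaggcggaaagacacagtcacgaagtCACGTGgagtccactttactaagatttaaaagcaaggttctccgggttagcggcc
Cxcl1: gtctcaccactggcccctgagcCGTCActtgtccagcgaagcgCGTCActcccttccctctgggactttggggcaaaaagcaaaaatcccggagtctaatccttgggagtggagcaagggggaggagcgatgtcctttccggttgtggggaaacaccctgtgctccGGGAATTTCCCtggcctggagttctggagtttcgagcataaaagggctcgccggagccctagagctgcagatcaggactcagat
Cxcl10: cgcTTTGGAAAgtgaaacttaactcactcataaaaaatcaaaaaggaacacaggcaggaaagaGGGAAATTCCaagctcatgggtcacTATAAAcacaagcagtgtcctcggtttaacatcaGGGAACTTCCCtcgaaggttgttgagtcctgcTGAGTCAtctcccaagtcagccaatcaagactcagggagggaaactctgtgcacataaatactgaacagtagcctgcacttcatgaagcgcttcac

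The Ptgs2 window holds a C/EBP match from 140 to 133 bases before the start and an E-box from 55 to 50 bases before it. Such an E-box was found in 5.59% of 33469 RefSeq promoter windows of this length and a C/EBP match in 37.2%. The κB consensus, found in 6.33% of windows, has no match in that of Ptgs2 and matches, some of them overlapping, in those of Cxcl1 and Cxcl10. Promoters were in the table for 10 of the 12 NF-κB targets, and 4 of the 10 (Cxcl1, Cxcl10, Il6 and Irf1) hold the κB consensus. These matches are descriptions of the letters, and binding was not measured.

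The libraries held 6624453 to 8548714 reads assigned to genes, so that 3 counts correspond to 0.354 to 0.453 CPM (counts per 1000000 reads, here scaled by the TMM method). Multimapped alignments made up 23.4% in 1 vehicle library, male Nx replicate 2, and 11.7% to 15.8% in the other 23. The LPS libraries differed widely in their response. Averaged over the 11 NF-κB targets other than Ptgs2, the rise above the vehicle samples of the same sex and oxygen group was 1.22 on the log2 scale in male IH LPS replicate 3 and 1.59 in male Nx LPS replicate 2, and between 2.57 and 4.62 in the other 10. These 2 libraries also hold the lowest Ptgs2 of the 12 LPS samples, so that leaving them out can only raise the level of males with LPS. Contrasts of Ptgs2 that include them are given with and without them, and the fold changes of the other targets with all samples only.

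In vehicle-treated pups Ptgs2 was close to the limit of detection. Male Nx samples had 5, 0 and 2 counts, male IH samples 6, 5 and 0, female Nx samples 4, 6 and 9, and female IH samples 1, 6 and 3. All 12 vehicle libraries together held 47 counts. The level was 0.513 ± 0.363 CPM (SD, n = 12), and the highest, in female Nx replicate 3, was 1.11 CPM. The 2 libraries without a count, male Nx replicate 2 and male IH replicate 3, allow levels of up to 0.428 and 0.381 CPM, the CPM of 3 counts, which covers counting error only. The 4 vehicle groups overlapped, and their order, with 0.838 ± 0.267 CPM in female Nx, 0.473 ± 0.423 in male IH, 0.457 ± 0.364 in female IH and 0.284 ± 0.310 in male Nx (SD, n = 3 each), was not resolved at these counts.

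After LPS Ptgs2 was counted in every library, with 780 counts in the 12. In male Nx LPS the level was 26.7, 2.08 and 7.91 CPM, from 190, 15 and 55 counts. In male IH LPS it was 9.94, 17.9 and 1.02 CPM, from 77, 129 and 8 counts. In female Nx LPS it was 3.47, 17.7 and 9.06 CPM, from 23, 138 and 68 counts. In female IH LPS it was 2.38, 2.95 and 4.41 CPM, from 20, 23 and 34 counts. Each sex and oxygen group with LPS thus lay wholly above its vehicle counterpart, and the sample nearest to the vehicle range was male IH LPS replicate 3. Among all 12, only this library was within the range of the vehicle samples, whose highest value was 1.11 CPM.

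The means with LPS followed the order 12.2 ± 12.9 CPM in male Nx LPS, 10.1 ± 7.16 in female Nx LPS, 9.63 ± 8.46 in male IH LPS and 3.25 ± 1.05 in female IH LPS (SD, n = 3 each). Neighbours in this order overlapped in their ranges, and the order itself was not tested. The highest sample exceeded the lowest 12.9-fold in male Nx LPS, 17.6-fold in male IH LPS and 5.09-fold in female Nx LPS, but 1.85-fold in female IH LPS. The plot of Ptgs2 by group shows each sample on the log2 scale.

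**Figure D1:**
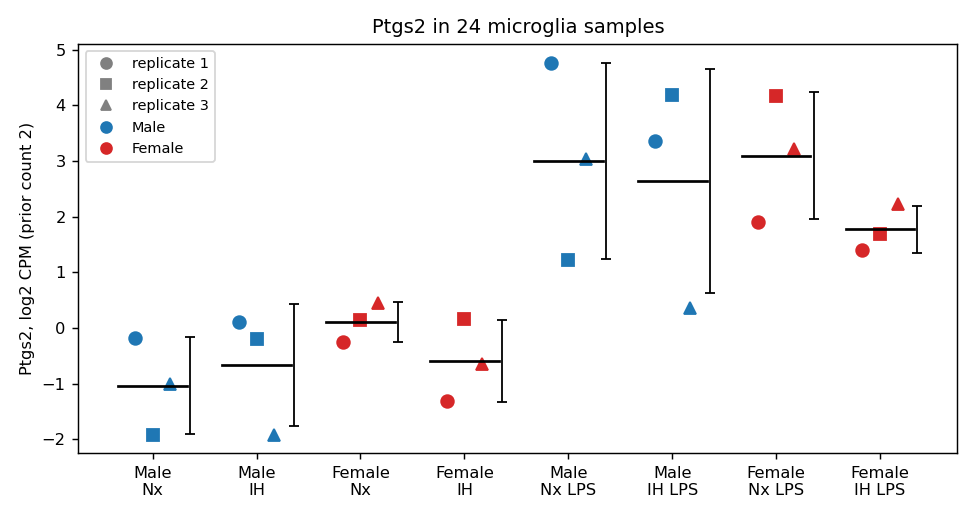
Ptgs2 in each of the 24 samples, as log2 CPM (prior count 2), by group, with males in blue, females in red and the replicate number as the symbol; horizontal lines are means and bars the SD of 3 samples. Every LPS group lies above its own vehicle group, and the spread is narrower in female IH LPS than in the other 3 LPS groups, where single samples reach 17.7 CPM or more.

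Ptgs2 rose with LPS in both oxygen groups. In Nx pups, sexes averaged, it was at 11.2 ± 9.38 CPM with LPS and 0.561 ± 0.399 CPM with vehicle (SD, n = 6 each), and all 6 LPS samples were above all 6 vehicle samples. The log2 fold change was 4.43 (SE, the standard error, 0.75), or 21.5-fold with a 95% interval of 7.32 to 63.2 (adjusted p = 3.5e-04, edgeR's quasi-likelihood test). Among all genes tested 16.1% changed with LPS in Nx, and 9.26% were higher. In IH pups Ptgs2 was at 6.44 ± 6.43 CPM with LPS and 0.465 ± 0.353 CPM with vehicle (SD, n = 6 each), again with no overlap. The log2 fold change was 3.55 (SE 0.76), or 11.7-fold with an interval of 3.92 to 35.1 (adjusted p = 0.0053 from the same edgeR test), where 7.16% of genes changed and 5.05% were higher. The exact permutation test, with LPS labels exchanged within each sex, gave p = 0.005 (two-sided) in both oxygen groups, the smallest value its 400 labellings allow. Because Ptgs2 passed the filter (a CPM above 1 in at least 3 samples) through its LPS samples, with 11 LPS libraries and 1 vehicle library above that level, a rise with LPS was favoured by the filter, and the rise was called as well without it (adjusted p = 7.06e-05 in Nx and 0.00202 in IH, edgeR). More cells of a type and more RNA per cell cannot be told apart in such bulk samples.

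The size of the rise rested on single samples more than its call did. Each of the 12 fits to Nx and each of the 12 to IH that left out 1 sample called Ptgs2, with log2 fold changes from 3.78 to 4.98 in Nx and from 3.15 to 3.93 in IH. The lowest Nx value was that without male Nx LPS replicate 1, the sample with the highest Ptgs2. Without the 2 libraries of weakest response the log2 fold changes were 4.68 in Nx (adjusted p = 6.66e-06, edgeR) and 3.82 in IH (adjusted p = 1.48e-04, edgeR). Leaving out the weakest responses fixes a larger LPS effect in advance, so these values are no check of the call.

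Within single groups, the log2 fold change with LPS was 5.30 in male Nx (SE 1.12), 3.55 in female Nx (SE 0.98), 4.31 in male IH (SE 1.05) and 2.80 in female IH (SE 1.10). With 3 samples against 3, Ptgs2 passed the threshold in male Nx (adjusted p = 0.00985, edgeR) and female Nx (adjusted p = 0.0339, edgeR) but not in male IH (adjusted p = 0.0579, edgeR) or female IH (adjusted p = 0.207, edgeR). Male IH passed by edgeR's likelihood ratio test (adjusted p = 0.00503), by DESeq2 (adjusted p = 0.00111) and without the filter (adjusted p = 0.0263, edgeR). With only the compared groups in the fit, female IH passed (adjusted p = 0.0328, edgeR) and male Nx did not (adjusted p = 0.0676, edgeR). The shares of all genes called were 4.07%, 6.43%, 0.855% and 3.23%, in the same order. The call was lost in male Nx without replicate 2 or 3 of the vehicle or replicate 1 of the LPS samples, with adjusted p from 0.0515 to 0.0753 (edgeR). In female Nx it was lost without any of the 3 vehicle samples or without replicate 2 or 3 of the LPS samples, with adjusted p from 0.0740 to 0.121 (edgeR). In male IH it was gained without LPS replicate 3, at a log2 fold change of 4.84 (adjusted p = 0.00778, edgeR). In female IH the log2 fold change ran from 2.39 without vehicle replicate 1 to 3.54 without vehicle replicate 2, with no call. The difference between the sexes in the LPS effect was 1.63 on the log2 scale, males minus females (95% interval -0.72 to 3.98, adjusted p = 1 from edgeR), and 0% of genes passed (169 at an unadjusted p below 0.05, and 0 by DESeq2). It ran from 0.99 without male Nx LPS replicate 1 to 2.18 without male Nx replicate 1. Without the 2 libraries of weakest response it was 2.15 (SE 0.87, edgeR adjusted p = 0.913), and the LPS effect was 5.80 in male Nx and 4.84 in male IH. Both libraries are male, so their choice fixes the direction in which these values moved.

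**Figure D2:**
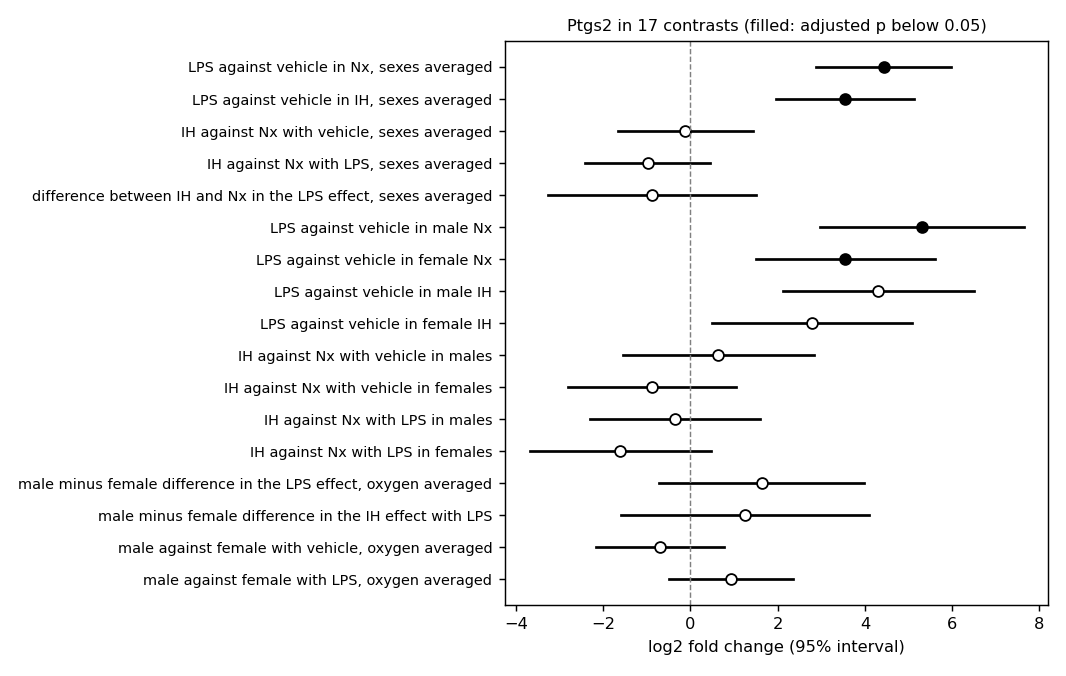
Ptgs2 in the 17 contrasts tested, as log2 fold change or difference of log2 fold changes, with 95% intervals from edgeR's quasi-likelihood fit; filled points have an adjusted p below 0.05. The 4 filled points are LPS effects, at 4.43 and 3.55 with the sexes averaged, 5.30 in male Nx and 3.55 in female Nx, and the intervals of the 11 contrasts that test IH, sex or a difference of effects include 0.

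IH alone left no detectable change in Ptgs2. With vehicle, the 6 IH samples were at 0.465 ± 0.353 CPM and the 6 Nx samples at 0.561 ± 0.399 CPM (SD), from 21 and 26 counts. The log2 fold change was -0.12 (SE 0.71, edgeR adjusted p = 1), and the interval ran from 0.315-fold to 2.69-fold, and no change past the spread between samples was detected. The share of genes called was 0%, with 136 genes at an unadjusted p below 0.05 and 0 called by DESeq2. In males the log2 fold change was 0.64 (SE 1.00) and in females -0.88 (SE 0.89), from 7 to 19 counts per group. With 1 sample left out the male value ran from 0.05 without IH replicate 1 to 1.74 without Nx replicate 1, and the female value from -1.62 without IH replicate 2 to -0.47 without IH replicate 1. Here too 0% of genes were called in either sex, with 124 in males and 143 in females at an unadjusted p below 0.05, and DESeq2 called 4 in males and 0 in females. The sign of the sex-averaged value depended on single samples, and it ran from -0.49 without female IH replicate 2 to 0.43 without male Nx replicate 1.

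With LPS, Ptgs2 was lower on average after IH, by an amount that did not exceed the spread between samples. The 6 IH LPS samples were at 6.44 ± 6.43 CPM, 57.8% of the 11.2 ± 9.38 CPM in the 6 Nx LPS samples (SD). The groups overlapped, and 1 IH LPS sample was below every Nx LPS sample. The log2 fold change was -0.98 (SE 0.66, edgeR adjusted p = 1), with an interval from 0.189-fold to 1.36-fold, and the exact permutation test within each sex gave p = 0.32 (two-sided). No gene passed for this contrast (0% of those tested), and 223 had an unadjusted p below 0.05. DESeq2 and edgeR's likelihood ratio test also called 0 genes. Without the 2 libraries of weakest response, which lie in different oxygen groups, the log2 fold change was -0.96 (SE 0.46, unadjusted p = 0.0591 from edgeR). It did not pass after adjustment over all genes. With 1 sample left out it ran from -1.40 without male IH LPS replicate 2 to -0.33 without male Nx LPS replicate 1.

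In females, IH LPS samples were at 3.25 ± 1.05 CPM and Nx LPS samples at 10.1 ± 7.16 CPM (SD, n = 3 each), so that the IH mean was 32.2% of the Nx mean. Of the 3 IH LPS samples 2 were below every Nx LPS sample, and the third, at 4.41 CPM, was above female Nx LPS replicate 1, at 3.47 CPM. The log2 fold change was -1.61 (SE 0.96, edgeR unadjusted p = 0.118, adjusted p = 1), and it ran from -2.01 to -0.94 when 1 sample was left out. The value nearest to 0 was that without female Nx LPS replicate 2, which had 17.7 CPM. In males the means were 9.63 ± 8.46 CPM with IH and 12.2 ± 12.9 CPM with Nx (SD, n = 3 each), with a log2 fold change of -0.35 (SE 0.90, edgeR adjusted p = 1). The sign in males depended on single samples. The log2 fold change was 0.95 without Nx LPS replicate 1, 0.18 without IH LPS replicate 3 and -1.20 without IH LPS replicate 2. Without both libraries of weakest response it was -0.32. Of all genes, 0% were called for IH with LPS in either sex by edgeR's quasi-likelihood test and 0 by DESeq2, and 164 in males and 183 in females had an unadjusted p below 0.05. The effect of IH was not shown to differ between the sexes, since the difference was 1.25 on the log2 scale, males minus females (95% interval -1.59 to 4.10, adjusted p = 1 from edgeR). This difference ran from 0.41 without male IH LPS replicate 2 to 2.56 without male Nx LPS replicate 1, and it was 1.29 without both libraries of weakest response.

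The LPS effect itself was 0.88 smaller on the log2 scale in IH than in Nx pups, with a 95% interval for the difference, IH minus Nx, from -3.26 to 1.51 (adjusted p = 1 from edgeR). It ran from -1.43 without male Nx replicate 1 to -0.23 without male Nx LPS replicate 1, and was -0.86 without both libraries of weakest response. For this difference 182 genes had an unadjusted p below 0.05, and edgeR and DESeq2 called 0. Male and female samples did not differ detectably in Ptgs2 with vehicle (males against females -0.70 on the log2 scale, SE 0.67, edgeR adjusted p = 0.585), where 0.07% of genes passed (9 genes, against 33 by the likelihood ratio test and 31 by DESeq2). That value ran from -1.25 without male Nx replicate 1 to -0.34 without female IH replicate 2. With LPS the log2 fold change was 0.93 (SE 0.66, edgeR adjusted p = 0.646), where 0.0467% passed (6 genes, against 85 by the likelihood ratio test, 68 by DESeq2 and 27 with the replicate number as a block). The exact permutation test within each oxygen group gave p = 0.23 with vehicle and p = 0.66 with LPS (two-sided). Leaving out 1 sample moved the log2 fold change with LPS from 0.28 without male Nx LPS replicate 1 to 1.27 without female Nx LPS replicate 2. Without the 2 libraries of weakest response it was 1.45 (SE 0.45, edgeR adjusted p = 0.43), a rise that the choice of these male libraries with the lowest Ptgs2 fixes in direction.

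**Figure D3:**
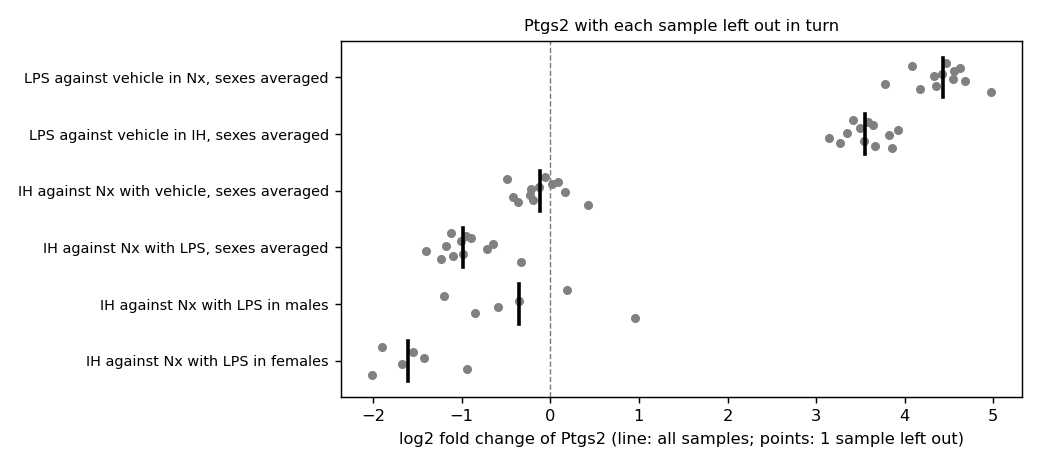
Log2 fold change of Ptgs2 for 6 contrasts with all samples (vertical lines) and with each sample of the compared groups left out in turn (points). The LPS effects stay between 3.15 and 4.98, the effect of IH with LPS in females between -2.01 and -0.94, and that in males crosses 0, from -1.20 to 0.95.

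The NF-κB targets with an identifier, 12 with Ptgs2, include cytokines and chemokines (Il1a, Il6, Csf3, Cxcl1, Cxcl9, Cxcl10), adhesion molecules (Sele, Icam1), the transcription factor Irf1, the survival gene Birc3 and the surface protein Cd83. The study listed them as lower after IH in LPS females of these samples, so their direction with IH is not independent evidence. Of the 12, 5 (Ptgs2, Cxcl1, Cxcl9, Csf3 and Sele) passed the filter only with their LPS samples, so that a rise was favoured for them and their number is no result. The other 7 passed on their vehicle samples. Of these, 7 rose with LPS in Nx, where 9.26% of all genes were higher, with log2 fold changes from 1.73 for Cd83 to 8.42 for Cxcl10 (median 2.75 against -0.04 over all genes tested). In IH 6 of the 7 rose, where 5.05% of all genes were higher, with a median of 1.77 against -0.01 over all genes. Il1a did not pass (log2 fold change 1.35, adjusted p = 0.0791 from edgeR). Ptgs2, at 4.43 in Nx, lay between Cxcl1 (5.49) and Icam1 (3.24) and had rank 7 of the 12 fitted values, as it did in IH at 3.55. Sele, Csf3 and Cxcl9 in Nx, and Sele and Csf3 in IH, had a vehicle group without a count, so their fitted fold changes have no fixed size, and neither has that rank. Against the level of 3 counts in each vehicle library, Csf3 in Nx was at least 13.7-fold higher with LPS and Sele at least 27.6-fold. With LPS, IH against Nx, 0 of 12 passed in either direction. All 12 log2 fold changes were below 0, with a median of -0.88 against 0.01 over all genes, of which 47.6% were below 0. They ranged from -1.28 for Cxcl10 to -0.54 for Cd83, and Ptgs2 was at -0.98. In males 10 of 12 were below 0 (median -0.54, Ptgs2 -0.35), as were 50.3% of all genes. These fits included both libraries of weakest response. In females, in which the list was chosen, 12 of 12 were below 0 (median -1.18, Ptgs2 -1.61), as were 47% of all genes.

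The pattern of Ptgs2 over the samples was closer to that of some targets than of others. Likeness was measured by Pearson's r of log2 CPM (prior count 2) with Ptgs2, as a description, since samples of a group share their treatment. Over all 24 samples the closest of the other 12859 genes tested were ENSRNOG00000027024 and ENSRNOG00000025476, which have no name in the sources used here (r = 0.94 each). They were followed by Sele, the endothelial adhesion molecule E-selectin (r = 0.94, rank 3), and, in rank 6, by Cxcl1, a chemokine that attracts neutrophils (r = 0.92). Among all genes 2.64% had an r above 0.8 over the 24 samples, as did 10 of the 11 targets. Of these targets, Cxcl1, Cxcl9, Csf3 and Sele passed the filter only with their LPS samples, as did Ptgs2. A high r was thereby favoured for them, and their number is no result. These values of r include the step between vehicle and LPS. Cxcl1, Cxcl10 and Plat were singled out after their values were seen.

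Within the 12 LPS samples, Cxcl1 was the closest of all genes tested to Ptgs2 (r = 0.96, Spearman's rho = 0.97). Sele had rank 9 (r = 0.90), Cxcl9, an interferon-induced chemokine, rank 13 (r = 0.89) and Il6 rank 29 (r = 0.86). An r above 0.8 was reached by these 4 of the 11 targets and by 0.778% of all genes. The value was 0.74 for Cxcl10, 0.63 for Icam1 and 0.48 for Cd83. With each sample set against its group mean, r was 0.96 for Cxcl1, 0.91 for Il6, 0.88 for Sele, 0.87 for Cxcl9, 0.83 for Cxcl10, 0.71 for Icam1 and 0.53 for Cd83. Without the 2 libraries of weakest response, r over 10 samples was 0.94 for Cxcl1, 0.88 for Il6 and 0.87 for Sele, and 0.49 for Cxcl10, 0.22 for Icam1 and 0.06 for Cd83. The rank among all genes was then 9 for Cxcl1, 49 for Il6, 53 for Sele and 136 for Cxcl9, so that Cxcl1 was no longer the closest. Plat, tissue plasminogen activator, which is not one of the targets, had an r of 0.82 over 12 and 0.92 over 10 samples. Without the 2 samples farthest from the median of Ptgs2, male IH LPS replicate 3 and male Nx LPS replicate 1, r was 0.94 for Cxcl1, 0.87 for Sele, 0.70 for Plat and 0.57 for Cxcl10.

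**Figure D4:**
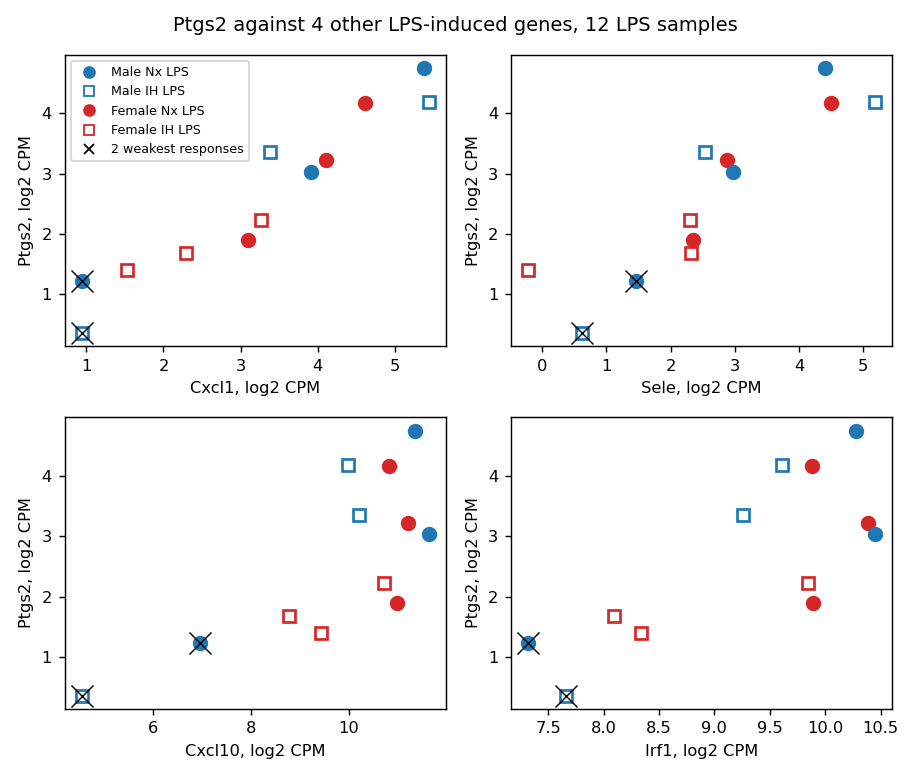
Ptgs2 (vertical axis) against Cxcl1, Sele, Cxcl10 and Irf1 (horizontal axes) in the 12 LPS samples, in log2 CPM, with Nx as filled circles, IH as open squares, males in blue and females in red; crosses mark the 2 libraries of weakest response. Ptgs2 rises with Cxcl1 along the whole range (r = 0.96), whereas samples with similar Cxcl10 or Irf1 differ widely in Ptgs2.

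Individual samples show how the targets parted. Female Nx LPS replicates 1 and 2 had similar Cxcl10, at 2031 and 1822 CPM, and similar Irf1, at 952 and 940 CPM. Their Ptgs2 was 3.47 and 17.7 CPM, their Cxcl1 8.30 and 24.2 CPM and their Sele 4.83 and 22.4 CPM. Male IH LPS replicate 2, with 17.9 CPM of Ptgs2, had 43.2 CPM of Cxcl1 and 36.1 CPM of Sele, both the highest of the 12 samples, but its Cxcl10, 1015 CPM, was below that of every Nx LPS sample except male Nx LPS replicate 2. Male Nx LPS replicate 3 had the highest Cxcl10, at 3192 CPM, and 7.91 CPM of Ptgs2. The log2 ratio of Ptgs2 to Cxcl1 had an SD of 0.475 over the 12 LPS samples, that to Sele 0.70 and that to Cxcl10 1.43, where Ptgs2 itself had an SD of 1.37. Without the 2 libraries of weakest response the SD of the ratio was 0.42 for Cxcl1, 0.761 for Sele and 1.06 for Cxcl10. Sele is made by activated endothelium, a cell type that selection by CD11b/c is meant to leave out. Sele was above 1 CPM in 11 of the 12 LPS libraries, and its level moved with that of Ptgs2. It was between 20.9 and 36.1 CPM in the 3 samples with the highest Ptgs2 and between 0.595 and 7.62 CPM in the other 9. The part of endothelial or other cells in these levels was not tested.

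**Figure D5:**
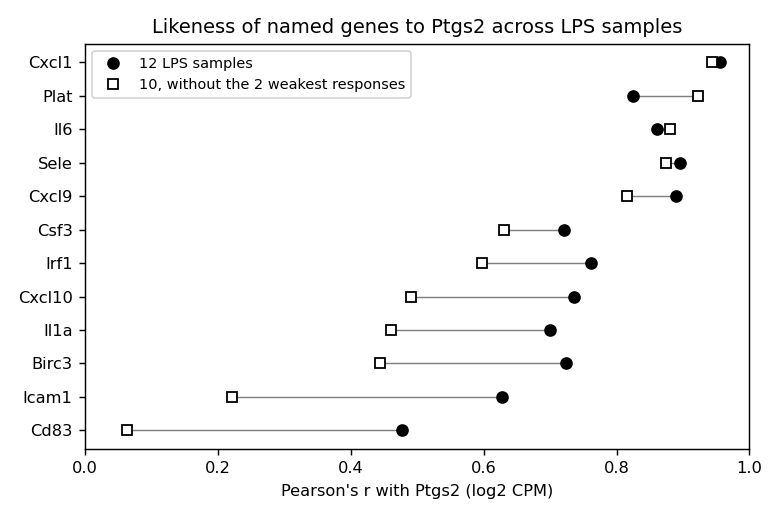
Pearson's r with Ptgs2 in log2 CPM for 11 NF-κB targets and Plat, over the 12 LPS samples (filled circles) and over 10 without the 2 libraries of weakest response (open squares). Cxcl1, Plat, Il6, Sele and Cxcl9 stay at 0.81 or more in both, and Icam1 and Cd83 fall to 0.22 and 0.06.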

How the data were processed

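RNA of the 24 samples was made into stranded mRNA libraries and sequenced on an Illumina HiSeq. The authors aligned the reads to rn6 with TopHat 2.1.0, counted them per Ensembl gene with HTSeq 0.6.1 (stranded reverse option) and deposited raw counts without a filter. The annotation release is not given in the sources used here. Rows that summarise uncounted reads were left out of library sizes and tests, and 14.7% to 21.2% of the alignments per sample lay in no gene.

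Tests on these counts used edgeR 4.0.16 under R 4.3.3, with DESeq2 1.42.0 as an alternative. A CPM above 1 in 3 or more samples was required, which kept 12860 genes, and TMM was the scaling. Group means were fitted to all 24 samples for LPS effects and to the 12 vehicle or 12 LPS samples for effects of IH and sex, and 17 contrasts were tested by the quasi-likelihood F test at an FDR of 0.05 over all genes. The standard error is the size of the log2 fold change divided by the square root of F, and intervals use the t distribution. The scripts were tested on simulated data.

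The members and lists were chosen with earlier results of these data known. The genes named were Ptgs2, the genes of the pathway lists and the 5 genes with the highest r over 24 samples. Plat, which is in none of these, was added after its values were seen. As 1 of 67 pathway symbols and 0 of 54 marker symbols had an identifier, the lists were replaced by the NF-κB targets with an identifier in the study, and unnamed genes were limited to 2. Samples are biological replicates in the labels, no pair within a group was the same library (chi-square per degree of freedom 7.65 or more), and p-values measure the spread between them. The labels give no batch or date. Alternatives are given in the closing section.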

Additional observations from a re-analysis of the deposited data

How the results depend on the processing

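Ptgs2 rose with LPS in Nx and in IH, sexes averaged, under every alternative run, and no alternative called it for IH, sex or a difference of effects. In male IH the LPS effect was called with edgeR's likelihood ratio test (log2 fold change 4.305), DESeq2 (4.355) and no filter (4.317). It was also called without both libraries of weakest response (4.843), a setting that favours a larger LPS effect. With only the groups compared in the fit it was called in female IH (2.816) and not in male Nx (5.303, adjusted p = 0.0676 from edgeR). Fits that each lacked 1 sample put the LPS effect at 4.01 to 6.405 in male Nx, 2.871 to 3.957 in female Nx and 3.499 to 4.907 in male IH, and the effect of IH at -0.4871 to 0.4305 with vehicle and -1.196 to 0.9531 with LPS in males. The cause of these changes was not tested, and the fits that lacked 1 sample also rest on fewer samples. As a replicate block, the replicate number changed no call of Ptgs2 (4.40 for LPS in Nx, 3.55 in IH, -1.03 for IH with LPS). Of 84 same-numbered pairs, 37 had deviations correlated above 0.1. With 3 numbers to choose from, 17 of 24 samples correlated best with their own number. Whether a number marks a shared litter or day is not stated in the labels and was not tested. The main fits carried no block. The number of genes called with LPS in male IH was 110, with 238 by the likelihood ratio test, 244 by DESeq2 and 26 to 353 with 1 sample left out, and in male Nx it was 523, with 810 by DESeq2 and 161 to 1028. The number called for sex with LPS was 6, with 85, 68 and, with the block, 27. The number for sex with vehicle was 9, with 33 by the likelihood ratio test and 31 by DESeq2. Leaving out 1 sample took the 921 genes called with LPS in IH down to 602, the 827 in female Nx to 335 and the 416 in female IH to 153, and DESeq2 called 676 in female IH. For IH with LPS in females the likelihood ratio test called 1 gene and the quasi-likelihood test 0. The permutation test and the fits without both weak libraries were chosen after seeing the data. The correlation of Ptgs2 with Nos2 was not run. Vehicle counts of 0 to 9 limit any effect of IH or sex without LPS.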
